A study of Sus scrofa with 70 samples.

Results

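The piRNA pathway genes described here were 10 genes: PIWIL1, PIWIL2, DDX4, MAEL, MOV10L1, TDRD1, TDRD9, ASZ1, GTSF1 and HENMT1. They were chosen by name, and the levels of all transcripts of a gene were summed, giving 35678 genes in all. For 9 members the transcripts carried the gene's name. No transcript was named MOV10L1, and its 19 transcripts were taken as those that overlapped the RefSeq MOV10L1 locus on the same strand (chr5:509868-567429, Sscrofa11.1). RNA was sequenced from testis, epididymis and the 3 accessory glands (prostate, bulbourethral and vesicular) of boars aged 12 months from 2 breeds. The Diannan small-ear pig (DSE) is the source breed and the Banna mini-pig inbred line (BMI) is an inbred derivative of it. No treatment was given, and each breed and gland had 3 RNA-seq libraries, 3 small RNA libraries and 1 Iso-seq library of full-length reads. The other loci are chr14:24729346-24760056 (PIWIL1), chr14:6560402-6632524 (PIWIL2), chr16:34879701-34983701 (DDX4), chr4:83990266-84040465 (MAEL), chr14:124526013-124575166 (TDRD1), chr18:28859140-28910927 (ASZ1), chr5:19639326-19661773 (GTSF1) and chr4:111364456-111382582 (HENMT1), with TDRD9 at bases 2394039 to 2479280 of an unplaced scaffold. Nothing in the labels says whether libraries of a group came from separate boars, so p-values measure the spread between these libraries.

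In the germ line, piRNAs are small RNAs that guide PIWI proteins to transposon transcripts and, in pachytene spermatocytes, to other RNAs. PIWIL1 and PIWIL2 are the PIWI proteins of this set. MOV10L1 is the helicase that feeds precursor transcripts into piRNA production, HENMT1 methylates the 3′ end of piRNAs, and GTSF1 is a PIWI cofactor. DDX4, MAEL, TDRD1, TDRD9 and ASZ1 are proteins of the nuage, the germ cell granules, among them the intermitochondrial cement and the chromatoid body, where piRNAs are made and act.

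Promoter sequences of PIWIL1 and MOV10L1 are shown because all 10 genes were highest in testis and these windows held the most AACNG matches among them. The window ran from 250 bases before to 50 bases after the RefSeq gene start (Sscrofa11.1). A set of 4 motifs known from germ cell genes were searched on both strands: AACNG (the core bound by MYB factors such as A-MYB), TCCCGC (E2F6), CACGTG (an E-box) and TGACGTCA (the cAMP response element). Matches are in capitals, and neighbouring AACNG matches on opposite strands can overlap. The windows are chr14:24760007-24760306, minus strand, for PIWIL1 and chr5:567380-567679, minus strand, for MOV10L1.
PIWIL1: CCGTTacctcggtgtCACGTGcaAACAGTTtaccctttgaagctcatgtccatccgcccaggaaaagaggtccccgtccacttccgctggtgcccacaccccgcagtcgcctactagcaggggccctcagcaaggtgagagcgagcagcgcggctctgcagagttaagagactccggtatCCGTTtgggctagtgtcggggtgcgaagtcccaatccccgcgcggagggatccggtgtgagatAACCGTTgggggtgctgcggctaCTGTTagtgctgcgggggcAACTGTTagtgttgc
MOV10L1: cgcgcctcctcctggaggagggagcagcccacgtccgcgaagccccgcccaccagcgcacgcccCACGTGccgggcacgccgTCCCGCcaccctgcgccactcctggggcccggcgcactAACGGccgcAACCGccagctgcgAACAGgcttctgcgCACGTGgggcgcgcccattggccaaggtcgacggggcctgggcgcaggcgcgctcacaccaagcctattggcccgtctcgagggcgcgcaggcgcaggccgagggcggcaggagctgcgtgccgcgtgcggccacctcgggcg
AACNG occurred in 9 of the 10 windows, all but DDX4, and in 74.2% of the windows of 20664 protein-coding genes. The PIWIL1 window held 9 matches, a number reached by 5 of the 20664 windows, and was singled out after its count was seen. CACGTG occurred in 3 of the 10 windows, with PIWIL1 and MOV10L1 among them, and in 7.64% of all windows. TCCCGC occurred for MOV10L1 and ASZ1, and in 28.99% of all windows. TGACGTCA was found in no member window and in 2.16% of all windows. CG dinucleotides ranged from 2 in the TDRD1 window to 42 in the MOV10L1 window, with a median of 16 over the members and 15 over all windows. The windows follow RefSeq gene starts, which differ from the starts of some testis transcripts. By RNA-seq the most abundant DDX4 and TDRD1 transcripts started at 34880739 and 124526508, past windows ending at 34879750 and 124526062. That of PIWIL1 started at 24760320 on the minus strand, ahead of its window. The missing match of DDX4 and the CG count of TDRD1 therefore hold for these windows alone. These matches describe letters only, and no binding was measured.

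RNA-seq levels were in TPM, a relative transcript abundance corrected for transcript length that allows genes to be compared within a library but keeps no record of depth. Leydig cell markers, summed, were at 18624 TPM or more in every testis library and at 4.09 TPM or less elsewhere. The 3 epididymis markers found did not separate epididymis from the other glands. Their sum was 1520 TPM in BMI prostate gland replicate 2, against 3.30 to 7.36 TPM in the other 5 prostate libraries and 1046 to 6681 TPM in vesicular gland, so this library stood apart from its group. DSE testis replicate 2 had 137 TPM of summed spermatocyte markers against 284 to 500 TPM in the other 5 testis libraries, 515 TPM of round spermatid markers against 1334 to 2434, and 25714 TPM of elongating spermatid markers against 76955 to 117600. It had more of the somatic markers, with 702 TPM of Sertoli cell markers against 247 to 427, 63648 TPM of Leydig cell markers against 18624 to 32451, 264 TPM of peritubular markers against 124 to 174, and 16.5 TPM of macrophage markers against 5.63 to 9.88. Spermatogonial markers were at 69.0 TPM in it and at 81.0 to 109 TPM in the others. Their genes differed in direction. In this library ZBTB16 (16.6 TPM against 3.37 to 9.28) and GFRA1 (0.781 against 0 to 0.551) were highest. STRA8 (3.82 against 12.4 to 22.7) and NANOS3 (0.888 against 0.929 to 1.59) were lowest, and UCHL1, KIT and DMRT1 lay within the range. The spermatogonial sum did not mark testis alone, with 87.8 TPM in BMI epididymis replicate 1. In bulk tissue, fewer cells of a type and less RNA per cell cannot be told apart.

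All members were highest in testis. Summed over the members, testis libraries held 391 to 1404 TPM, and the 24 other libraries 1.07 to 25.8 TPM. The level was tested as log2(TPM + 1) with limma across 19909 genes that reached 1 TPM in 3 libraries, with the mean of the other 4 glands as reference. The call required both an adjusted p (Benjamini-Hochberg) under 0.05 and a difference of 1 or more on the log2 scale. All 10 members rose in testis, where 34.5% of all tested genes were called higher. Their median log2 fold change was 5.24, and that of all tested genes was 0.31. Scaling by size factors moved the latter to 0.13, and all 10 members were still called.

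**Figure D1:**
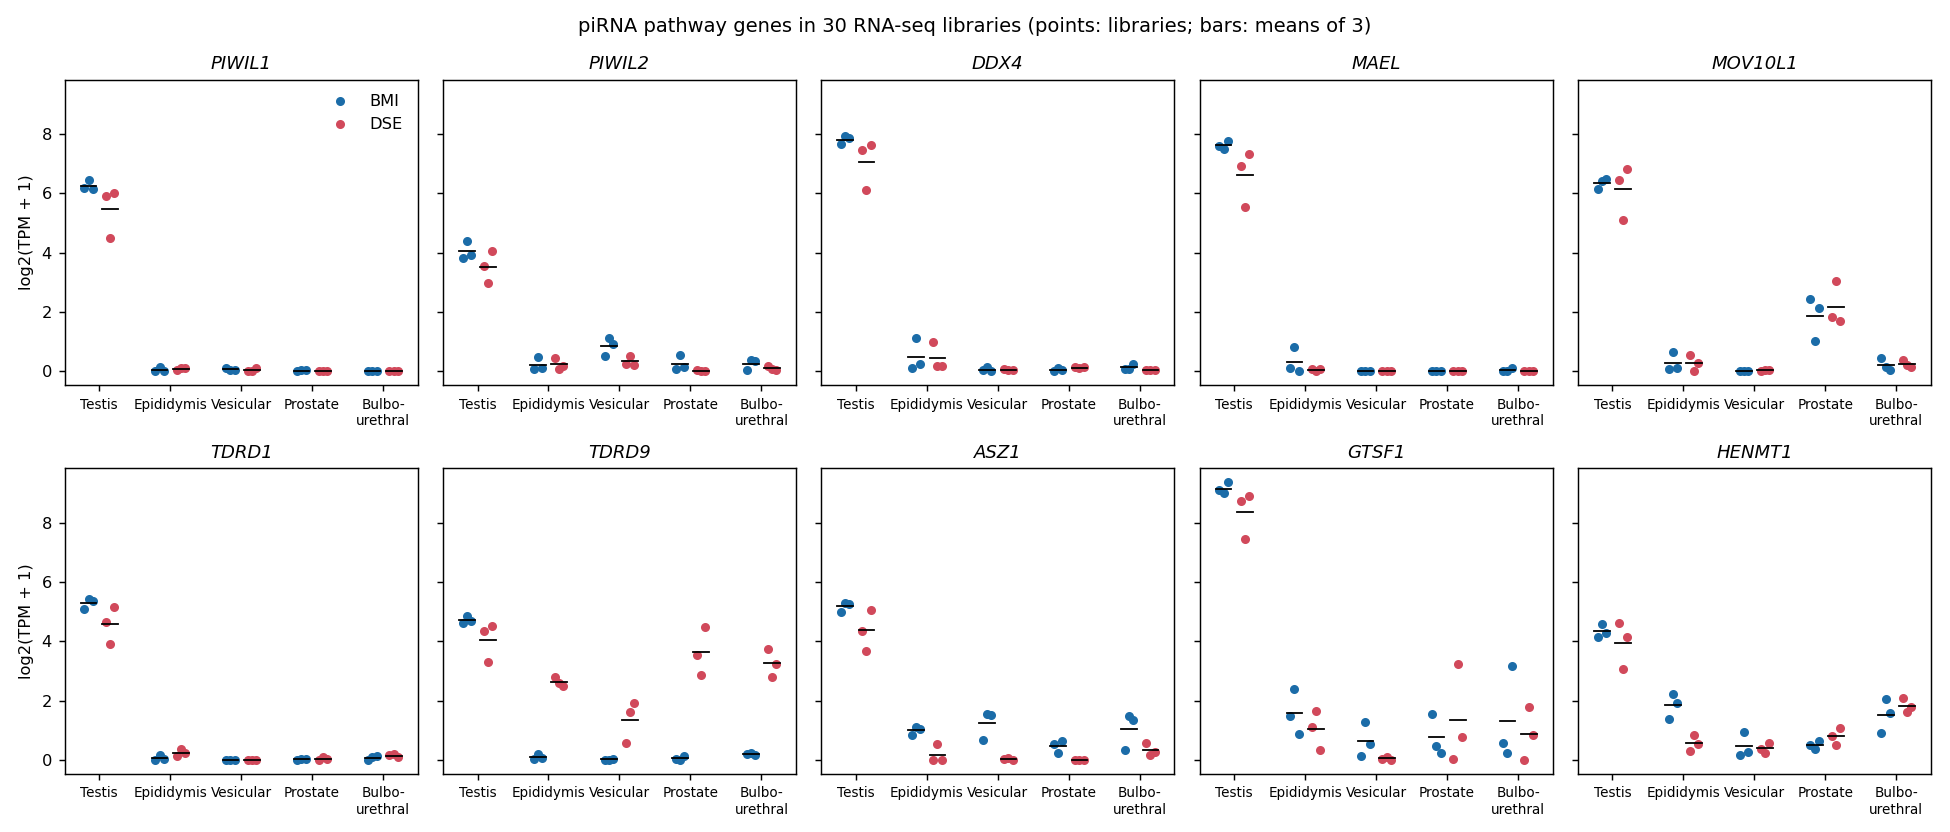
Levels of the 10 piRNA pathway genes, as log2(TPM + 1), in each of 30 RNA-seq libraries by gland, with BMI in blue, DSE in red and black bars for means of 3 libraries. All members peak in testis, and TDRD9 also has high DSE points in the other glands.

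The members with the PIWI proteins at their core differed widely in abundance. PIWIL1 was at 71.8, 87.3 and 69.8 TPM in the BMI testis libraries and at 59.5, 21.5 and 64.4 TPM in the DSE ones. It did not exceed 0.0980 TPM elsewhere, and was listed at 0 in 13 of 24 libraries. Its log2 fold change in testis was 5.84 ± 0.14 (SE), with an adjusted p of 6.81e-22 by limma. PIWIL2 was lower, at 13.2, 20.1 and 14.3 TPM in BMI testis and 10.8, 6.84 and 15.7 TPM in DSE testis. Outside testis PIWIL2 reached 1.16 TPM in BMI vesicular gland replicate 2, and its testis change was 3.51 ± 0.13 (SE; adjusted p = 2.38e-18 by limma).

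By TPM, GTSF1 was the most abundant member. Its testis levels were 549, 511 and 661 TPM in BMI and 422, 173.5 and 478 TPM in DSE. The other glands spread from 0 to 8.52 TPM, and 9 of 24 libraries had at least 1 TPM. The mean over the 6 testis libraries was 466 ± 164 TPM (SD, n = 6), and the log2 fold change was 7.81 ± 0.40 (SE; adjusted p = 1.93e-15 by limma). Next came 2 nuage proteins. The helicase DDX4 was at 201, 243 and 232 TPM in BMI testis and at 176, 67.7 and 196 TPM in DSE testis. MAEL was at 191, 180 and 217 TPM in BMI testis and at 121, 45.9 and 160.5 TPM in DSE testis. Both were nearly silent elsewhere, with at most 1.17 TPM for DDX4 and 0.767 TPM for MAEL, both in BMI epididymis replicate 2. MAEL was listed at 0 in 19 of the 24 libraries. Their testis changes were 7.27 ± 0.17 for DDX4 and 7.06 ± 0.16 for MAEL (log2, SE).

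BMI epididymis replicate 2 also held the highest summed elongating spermatid markers outside testis, at 1045 TPM, while the other 23 libraries held at most 253 TPM. Its part in the epididymal levels of DDX4, MAEL, PIWIL1 and HENMT1, which all peaked in that library among the 24, was not tested.

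In order of mean testis TPM, GTSF1 was followed by DDX4, MAEL, MOV10L1 (79.7 TPM), PIWIL1 (62.4 TPM), TDRD1 (31.3 TPM), ASZ1 (28.4 TPM), TDRD9 (21.0 TPM), HENMT1 (17.6 TPM) and PIWIL2 (13.5 TPM). Each gene exceeded the next in all 6 testis libraries, except MOV10L1 over PIWIL1, in 4 of 6, and TDRD9 over HENMT1, in 5 of 6. The order was therefore much the same in each library, although SDs over libraries overlapped between several neighbours. For instance, TDRD1 was at 31.3 ± 10.6 TPM and ASZ1 at 28.4 ± 10.5 TPM (SD, n = 6). Full-length testis reads by Iso-seq gave another order, DDX4 (773), PIWIL1 (736), GTSF1 (508), TDRD1 (364), MOV10L1 (289) and MAEL (193) ahead of the rest. TPM is corrected for transcript length, and the methods named different isoforms for GTSF1, of 723 bases by RNA-seq and 4092 by Iso-seq.

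MOV10L1, the helicase at the start of the pathway, was at 70.7, 84.1 and 88.8 TPM in BMI testis and at 87.5, 33.8 and 113 TPM in DSE testis. It was also present in prostate gland, a pattern singled out after its values were seen. The prostate libraries held 4.45, 1.04 and 3.36 TPM in BMI and 2.54, 7.16 and 2.21 TPM in DSE, while the other 18 libraries outside testis held at most 0.558 TPM. The lowest of the 6 was BMI replicate 2, the library that stood apart in its markers. In prostate, 89.6 to 97.8% of this signal was assigned to one isoform of 12 exons and 1985 bases at the 3′ part of the gene. In testis that isoform took at most 5.81% of the gene. No full-length read of MOV10L1 was obtained from prostate, among 263309 reads in BMI and 336015 in DSE.

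TDRD1, a tudor-domain scaffold of the nuage, was at 32.9, 41.9 and 40.4 TPM in BMI testis and at 24.01, 14.1 and 34.8 TPM in DSE testis. TDRD1 stayed below 0.298 TPM outside testis, and its testis change was 4.86 ± 0.11 (log2, SE). ASZ1, a mitochondrial outer membrane protein of the nuage, was at 30.6, 38.1 and 37.6 TPM in BMI testis and at 19.6, 11.9 and 32.5 TPM in DSE testis. In both genes DSE replicate 3 lay within the BMI range and the other DSE libraries below it. ASZ1 reached 1.96 TPM outside testis and changed by 4.24 ± 0.17 in testis. HENMT1 was at 16.9, 22.9 and 18.3 TPM in BMI testis and at 23.5, 7.41 and 16.8 TPM in DSE testis. It kept a low level in other glands, above 0 in all 24 libraries and at most 3.71 TPM, with a testis change of 3.15 ± 0.19. TDRD9, a helicase with a tudor domain, was at 23.4, 27.7 and 24.8 TPM in BMI testis and at 19.3, 8.89 and 21.8 TPM in DSE testis. It had the smallest testis change at 2.98 ± 0.20 (adjusted p = 6.48e-13 by limma). For 9 members every testis library exceeded every other library, as did 23.8% of tested genes. TDRD9 was the exception, with 8.89 TPM in its lowest testis library and 21.6 TPM in DSE prostate gland replicate 3.

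**Figure D2:**
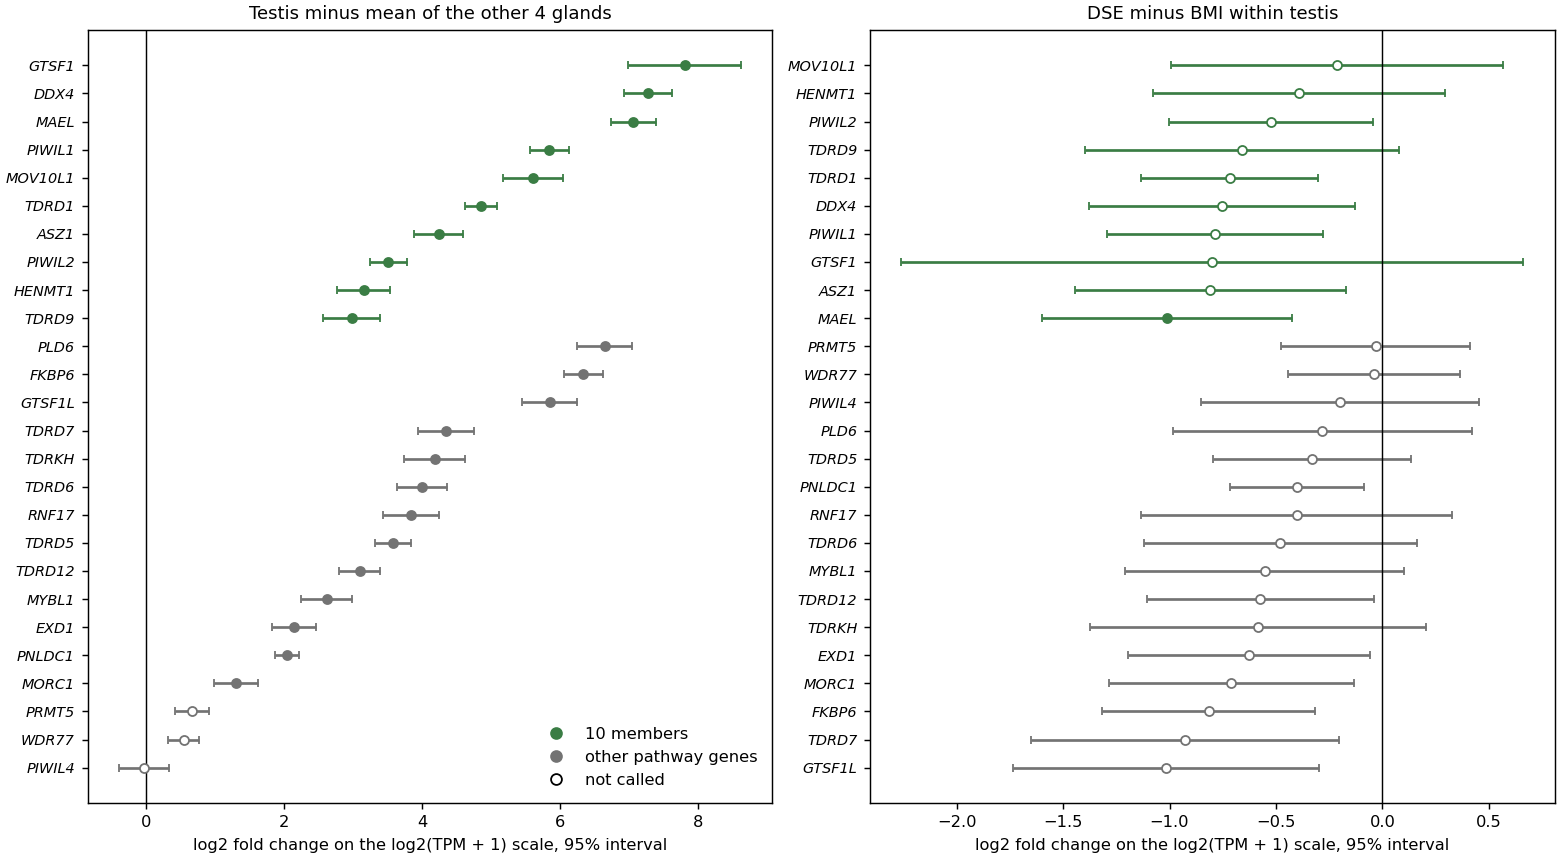
Log2 fold changes with 95% intervals for the 10 members (green) and 16 other pathway genes (grey), testis against the mean of the other glands (left) and DSE against BMI within testis (right); open circles were not called. In testis all members lie between 2.98 and 7.81, and within testis MAEL alone is called between breeds.

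The other genes of the pathway were taken from a list of 24, of which 20 had a named transcript in the table and 16 passed the filter on low levels. Of these 16, 13 rose in testis and none fell. The largest changes were those of PLD6, the mitochondrial nuclease that cuts precursors (6.65 on the log2 scale), FKBP6, a nuage cochaperone (6.34), and GTSF1L, a relative of GTSF1 (5.85). The 3 not called were PRMT5 (0.66) and WDR77 (0.55), which together methylate PIWI proteins and many other proteins, and PIWIL4 (-0.03). The PIWI gene PIWIL3 was not tested, since it reached at most 0.776 TPM in any library. When Ensembl transcripts alone were summed, 10 of the other pathway genes were tested and 6 were called, where 26.7% of 14062 genes were called higher. Of 4 relatives outside the germ line pathway, 2 were called higher in testis. MOV10 (-0.17) and DDX3X (0.88), relatives of MOV10L1 and DDX4, were not called, and AGO2 (2.65) and TDRD3 (1.94) rose.

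Over the 30 libraries, the genes whose log2(TPM + 1) was most like the mean of the members were INSL6, DNAH2, SLC9B1, PRSS54 and SPATA16, with Pearson r from 0.996 to 0.997. Libraries of one gland share their cell makeup, so this mostly records the contrast of testis with the rest. The members' own r ranged from 0.705 for TDRD9 to 0.996 for TDRD1, and 6085 genes reached the value of TDRD9.

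Between epididymis and the mean of the 3 accessory glands, none of the 10 members was called by limma, where 17.7% of all genes were higher and 2.43% lower. The unadjusted p was below 0.05 for DDX4 (0.40 on the log2 scale) and MOV10L1 (-0.48). With a pseudocount of 0.1, DDX4 was called (1.42 on the log2 scale, adjusted p = 0.00128 by limma). Its level was 1.17 TPM in BMI epididymis replicate 2 and 0.971 TPM in DSE epididymis replicate 1, and 0.0730 to 0.192 TPM in the other 4. These were the 2 epididymis libraries with the most elongating spermatid markers, at 1045 and 253 TPM, and the part of these in the call was not tested. DSE epididymis replicate 1 also stood apart in other markers. Its summed epididymis markers were at 89.9 TPM, against 1232 to 4067 TPM in the rest of the epididymis libraries. Macrophage markers were at 16.5 TPM in it and at 63.1 to 149.5 TPM in the rest.

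Within testis, all 10 members had a lower mean log2 level in DSE than in BMI, by 0.21 for MOV10L1 to 1.01 for MAEL. The median difference was -0.74, and that of all tested genes -0.05. One member, MAEL, fell in DSE by the limma test, where 3.67% of all genes were called lower and 1.09% higher. Its change was -1.01 ± 0.28 (SE; adjusted p = 0.0268), from 196 ± 18.9 TPM in BMI to 109 ± 58.2 TPM in DSE (SD, n = 3). TDRD1 had an adjusted p of 0.0275 with a change of -0.72, short of the fold required. The fit shared one spread over all 10 groups, and outside testis MAEL was listed at 0 in 19 of 24 libraries. SEs and p-values of such genes draw in part on glands where they hardly vary, and can understate the spread in testis. In a fit of the 6 testis libraries alone, no member had an adjusted p below 0.05 by limma. The DSE libraries lay below all BMI libraries for 5 members (PIWIL1, DDX4, MAEL, TDRD9 and GTSF1), and for 15.2% of all genes; none lay above.

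The size of these differences depended on DSE testis replicate 2. It was the lowest of the 6 testis libraries for all 10 members, as for 35.2% of all genes and 72.9% of genes called higher in testis. Its members stood at 26.3% (MAEL) to 46.2% (PIWIL2) of the mean of the other 5 libraries. Without it no member was called between the breeds, MAEL changed by -0.49 (adjusted p = 0.195 by limma), the median difference was -0.29, and MOV10L1 and HENMT1 were no longer lower in DSE. The call of MAEL was also lost when any single BMI testis library was left out, with a pseudocount of 0.1, and in a fit of the testis libraries alone. Over 19 alternatives its adjusted p ranged from 0.000758 to 0.418. With DSE testis replicate 3 left out instead, 5 members were called lower, where 6.89% of all genes were, and with DSE testis replicate 1 left out, 2 were, where 5.58% of all genes were. In both cases DSE testis replicate 2 was 1 of the 2 DSE libraries left. None of the 16 other pathway genes was called between the breeds in testis with all libraries, and 3 were called lower without DSE testis replicate 3, as were 3 without DSE testis replicate 1.

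Summed spermatocyte and spermatid markers were low in the same library, and their part in the member levels was not tested. The ratio of summed member TPM to summed spermatocyte marker TPM was 3.16, 2.51 and 3.17 in the BMI testis libraries and 3.39, 2.86 and 3.01 in the DSE ones. In DSE testis replicate 2 this ratio lay within the range of the BMI libraries. Against round spermatid markers the ratio was 0.575, 0.621 and 0.577 in BMI and 0.722, 0.761 and 0.635 in DSE. Here all DSE libraries lay above all BMI libraries.

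**Figure D3:**
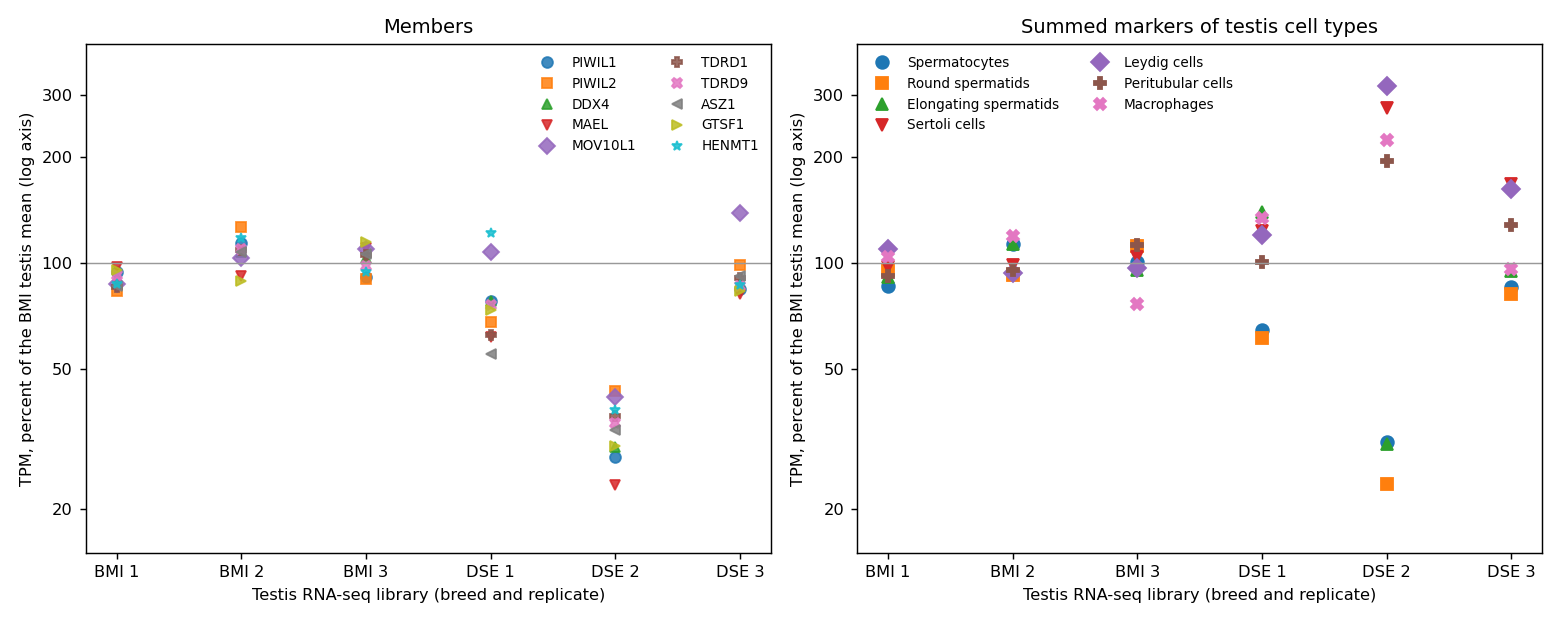
TPM in the 6 testis libraries as a percent of the BMI testis mean, on a log axis, for each member (left) and for summed markers of testis cell types (right). In DSE 2 all members and the 3 meiotic and postmeiotic marker sums are low, and the 4 somatic sums are high.

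Mean small RNA read length was compared with these levels by order alone, taking the order from the study's supplementary statistics. The testis small RNA libraries fell into a longer cluster, holding all BMI libraries and DSE 1, and a shorter cluster, holding DSE 3 and then DSE 2. The library with the lowest member levels, DSE 2, shared its label with the shortest mean read length. DSE 3, second shortest, had 1134 TPM over the members, more than the 964 TPM of DSE 1 in the longer cluster. With such clusters no correlation was computed, and equal labels are the only link between an RNA-seq and a small RNA library. Reads counted on miRNAs, recovered from the smallest steps of the deposited values, numbered 11810000 in DSE 2 and 6894000 in DSE 3, against 1295000 to 2978000 in the 4 libraries of the longer cluster. All values below 3 RPM were whole reads within the rounding of the file.

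Outside testis, TDRD9 differed between the breeds. In epididymis it was at 0.0229, 0.138 and 0.0355 TPM in BMI and at 5.98, 5.01 and 4.58 TPM in DSE. In prostate gland it was at 0.0173, 0 and 0.0938 TPM in BMI and at 10.6, 6.29 and 21.6 TPM in DSE. In bulbourethral gland it was at 0.146, 0.178 and 0.109 TPM in BMI and at 12.5, 6.03 and 8.43 TPM in DSE. In vesicular gland it was at 0, 0 and 0.0284 TPM in BMI and at 0.467, 2.04 and 2.75 TPM in DSE. Every DSE library thus exceeded every BMI library in all 4 glands, a pattern found for 32 of 19909 genes (0.161%) and for no other member.

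By limma TDRD9 was called higher in DSE in 3 of these glands, where 0.417%, 0.497% and 0.171% of all genes were called higher. The change was 2.53 ± 0.36 in epididymis (log2, SE; adjusted p = 0.000192), 3.58 ± 0.36 in prostate gland (adjusted p = 2.17e-06) and 3.08 ± 0.36 in bulbourethral gland (adjusted p = 1.69e-05). In vesicular gland it was 1.34 ± 0.36 (adjusted p = 0.0899), where 0.171% of all genes were called higher, and it was called there under 3 alternatives. Without replicate 2 of every group, which leaves out the BMI prostate library that stood apart, the prostate difference was 3.94 (adjusted p = 0.000966). In testis the difference was -0.66 ± 0.36 (adjusted p = 0.352). The breed difference in testis was 3.29 ± 0.40 lower on the log2 scale than the mean of those in the other glands (adjusted p = 3.5e-06 by limma). No other member was called in that comparison, where 3.86% of all genes were called and 3% were called lower. With Ensembl transcripts alone, TDRD9 kept its call in prostate gland (2.44) and lost it in epididymis (0.60, adjusted p = 0.846) and bulbourethral gland (1.29, adjusted p = 0.535).

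**Figure D4:**
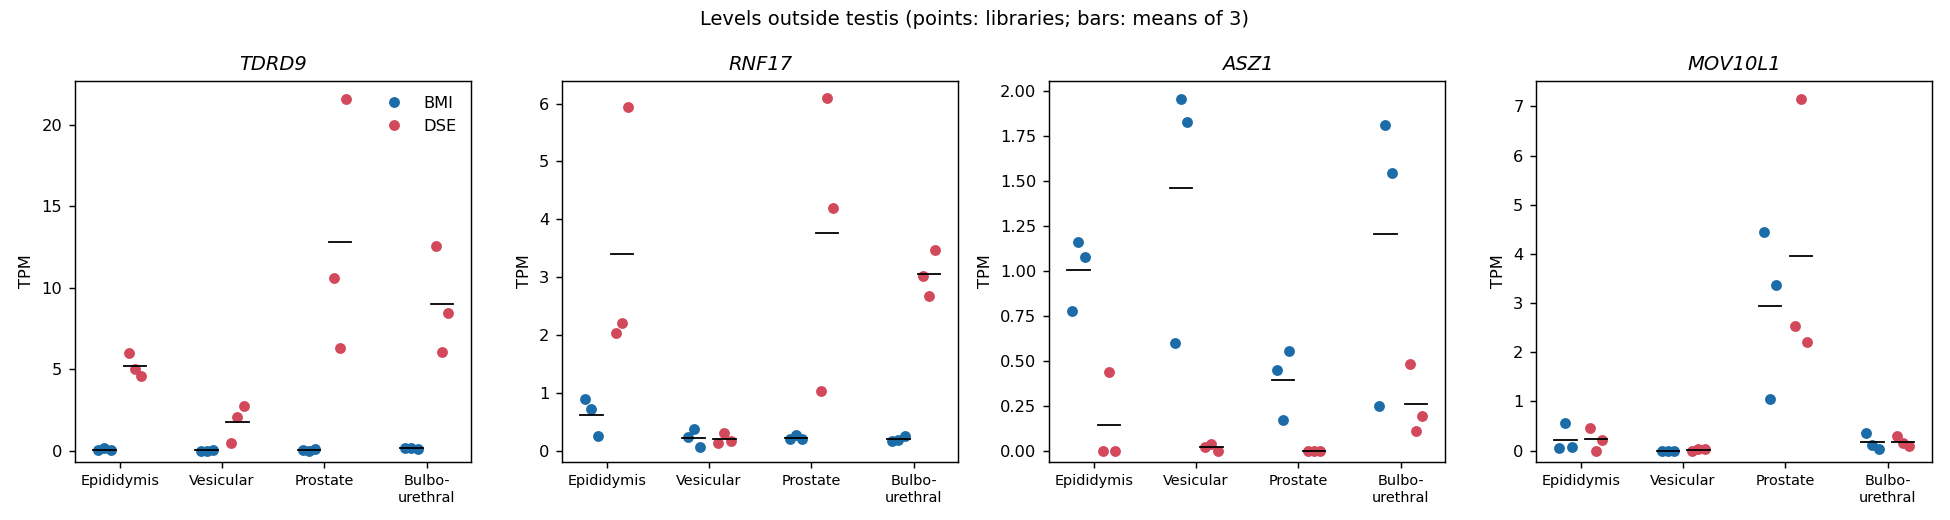
TPM of TDRD9, RNF17, ASZ1 and MOV10L1 in each library of the 4 glands outside testis, with BMI in blue, DSE in red and bars for means of 3; each panel has its own linear axis. TDRD9 separates the breeds in every gland, and MOV10L1 is present in prostate gland in both breeds.

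The TDRD9 signal in DSE glands came mostly from transcripts with the first exons of the gene. Such transcripts took 66.6 to 93.4% of the TDRD9 TPM in the 12 DSE libraries outside testis, and 94.5 to 97.2% in testis. Iso-seq gave 8 full-length TDRD9 reads in DSE bulbourethral gland, 4 in DSE prostate gland, 2 in DSE epididymis and 1 in DSE vesicular gland. In BMI, 3 were found in prostate gland and 0 in the other 3 glands, so the prostate reads alone do not separate the breeds. Neighbouring genes up to 173355 bases from TDRD9 on the same scaffold were not called between the breeds in these glands: KLC1, XRCC3, ZFYVE21, PPP1R13B, ASPG, KIF26A and 1 unnamed gene. The flanking ASPG had a log2 difference of 1.11 in vesicular gland (adjusted p = 0.378 by limma), and the unnamed gene 0.51 in prostate gland (adjusted p = 0.37 by limma).

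Germ cell markers differed between these glands, and their part in the TDRD9 levels was not tested. Summed spermatocyte markers were at 0.0559 to 2.40 TPM in the 12 DSE libraries outside testis. Of the 7 genes of that list, SYCP2 was above 0 in all 12 and reached 2.05 TPM, while the other 6 stayed at or below 0.545 TPM and were listed at 0 in 3 (SYCP1) to 11 (SPO11) of the 12. Round spermatid markers were at 0 to 3.82 TPM and spermatogonial markers at 4.79 to 48.1 TPM in the same libraries. The spermatogonial sum, which did not mark testis alone, came mostly from 4 of its 7 genes. ZBTB16, UCHL1, KIT and GFRA1 were above 0 in all 12 and reached 29.4, 14.35, 8.55 and 5.92 TPM. STRA8, DMRT1 and NANOS3 stayed at or below 1.24 TPM and were listed at 0 in 6, 11 and 1 of the 12. Elongating spermatid markers were at 1.27 to 253 TPM in DSE epididymis and at 0 to 6.02 TPM in the other DSE glands. In DSE prostate and bulbourethral gland, PIWIL1 and MAEL were listed at 0 in every library. Of the other pathway genes, RNF17 was the one called between the breeds outside testis. RNF17, a further tudor protein of the nuage, was higher in DSE prostate gland (1.78 ± 0.35 on the log2 scale, adjusted p = 0.0121) and bulbourethral gland (1.75 ± 0.35, adjusted p = 0.0185). It had 1.03, 6.09 and 4.19 TPM in DSE prostate gland against 0.206, 0.267 and 0.195 TPM in BMI. TDRD6, also a tudor protein, had all DSE libraries above all BMI libraries in prostate gland, at 0.759 to 0.922 against 0.161 to 0.461 TPM, and in bulbourethral gland, at 0.584 to 1.03 against 0.208 to 0.532 TPM, and was not called. The same order held for 29.5% of all genes in prostate gland and for 4.56% in bulbourethral gland. Among the other pathway genes, TDRD7, TDRD12 and WDR77 also had it in prostate gland, and TDRD5 and TDRKH did not. In epididymis RNF17 differed by 1.35 (adjusted p = 0.0804) and in vesicular gland by -0.02. Its breed difference in testis was 1.62 ± 0.40 lower than that in the other glands (adjusted p = 0.0134 by limma).

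ASZ1 had values in the opposite order. Its BMI libraries lay above its DSE libraries in epididymis, vesicular gland and prostate gland, as for 2.56%, 21.1% and 1.89% of all genes. In vesicular gland it was at 0.599, 1.96 and 1.83 TPM in BMI and at 0.0212, 0.0343 and 0 TPM in DSE, a log2 difference of -1.22 (adjusted p = 0.069 by limma). In prostate gland it was at 0.447, 0.170 and 0.553 TPM in BMI and listed at 0 in all DSE libraries. HENMT1 in epididymis was at 1.61, 3.71 and 2.82 TPM in BMI and at 0.236, 0.784 and 0.458 TPM in DSE, a log2 difference of -1.29 (adjusted p = 0.0713 by limma). Neither was called, but a lower pseudocount and size factors each called ASZ1 in vesicular gland, and leaving out single testis libraries called both.

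Iso-seq reads showed which isoforms these genes made. Across 10 libraries of 231413 to 458697 full-length reads, 96 isoforms and 3144 reads belonged to the members, 97.8% of the reads from testis. Full-length testis reads numbered 388 in BMI and 348 in DSE for PIWIL1, 447 and 326 for DDX4, 258 and 250 for GTSF1, 203 and 161 for TDRD1, 140 and 149 for MOV10L1, and 129 and 64 for MAEL. TDRD9 had 35 and 42, PIWIL2 46 and 36, ASZ1 34 and 10, and HENMT1 6 and 4. With 1 library per breed and gland these counts have no replicate check. Outside testis GTSF1 had the most reads, with 17 in BMI bulbourethral gland, 9 in BMI epididymis and 5 in BMI vesicular gland.

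Of the 96 member isoforms, 84.4% matched no annotated splice pattern in full or in part, a share near the 81.6% of all 110996 isoforms. By class, 7 matched an annotated splice pattern in full, 8 matched part of one, 18 used known splice sites in new combinations, 52 used at least 1 unannotated splice site, and 11 joined 2 annotated genes. All 11 joined isoforms were those of MOV10L1, where Ensembl holds 2 separate fragments within the one RefSeq gene. Of 94 coding member isoforms, 35 were predicted targets of nonsense-mediated decay (NMD), against 22.1% of all coding isoforms. These 35 included all 14 of TDRD1 and 12 of the 17 of MOV10L1. Isoforms of a gene share exons, so they are not independent.

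**Figure D5:**
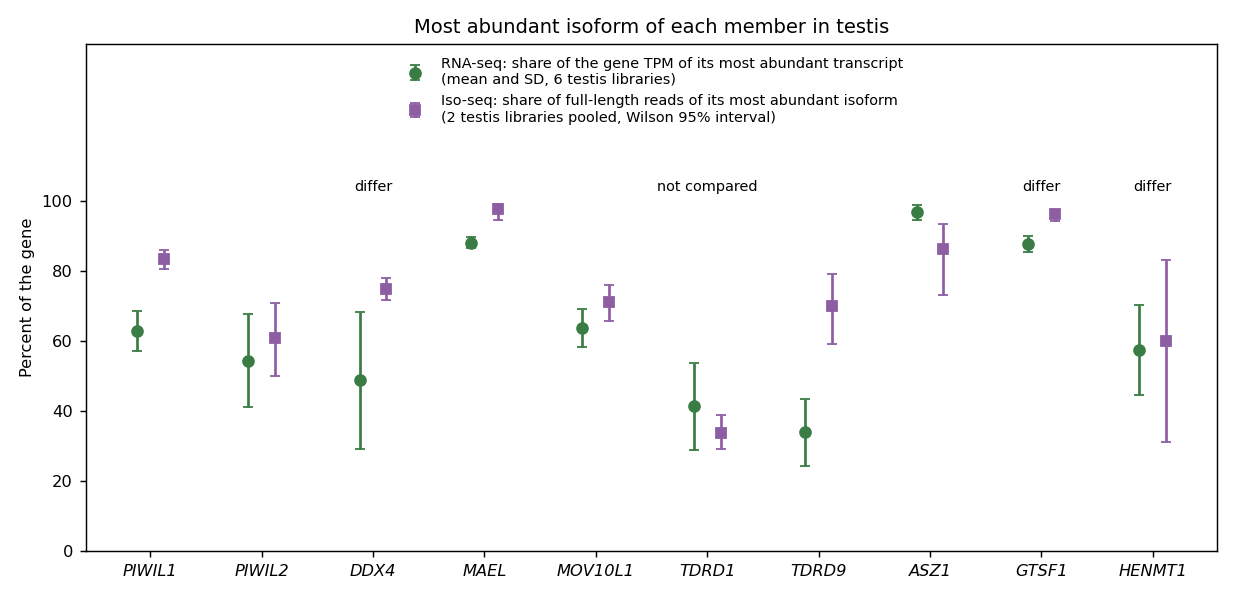
Share of the most abundant isoform of each member in testis, by RNA-seq (green, mean and SD over 6 libraries) and by Iso-seq (purple, Wilson 95% interval for the 2 testis libraries pooled). The word "differ" marks the 3 genes where the methods named different isoforms, and TDRD1 could not be compared.

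The most abundant isoform was the same by both methods for 6 of the 9 members that could be compared. By RNA-seq, one transcript took 96.8 ± 2.14% of ASZ1 (13 exons, absent from Ensembl), 88.1 ± 1.53% of MAEL, 63.9 ± 5.44% of MOV10L1 (26 exons) and 62.9 ± 5.79% of PIWIL1 (21 exons; SD, n = 6). For PIWIL2 the share was 54.4 ± 13.2%, and for TDRD9, whose top transcript has 36 exons, 33.9 ± 9.60%. Iso-seq named the same isoform for these 6 genes, with 83.6% of 736 reads for PIWIL1 (Wilson 95% interval 80.7 to 86.1%) and 70.1% of 77 reads for TDRD9 (59.2 to 79.2%). For DDX4, GTSF1 and HENMT1 the methods named different isoforms, HENMT1 on 6 of 10 reads (Wilson 95% interval 31.3 to 83.2%). TDRD1 could not be compared, since its most read isoform, with 33.8% of 364 reads, has no value in the TPM table. In GTSF1, RNA-seq gave 87.8 ± 2.25% to an Ensembl transcript of 723 bases, and Iso-seq gave 489 of 508 reads to one of 4092 bases with a longer 3′ end. Intervals cover counting error only.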

How the data were processed

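The authors deposited RNA-seq levels as TPM per transcript and library, made with Salmon 1.9.0 against Ensembl transcripts merged with Iso-seq isoforms. They deposited Iso-seq data as counts of full-length reads per isoform and library, not normalized, and small RNA data as RPM on miRNAs, with 2 decimals. The labels name rRNA depletion for RNA-seq, whereas the methods describe poly-A selection. The submitters' notes also name STAR 2.7.10a, GSNAP and Bowtie 1.3.1, and the genome Sscrofa11.1.

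TPM was summed by gene name, and for MOV10L1 by its RefSeq locus. The 10 group means of the 30 libraries were fitted with limma 3.58.1 in R 4.3.3 (variance prior with a trend on mean level) on log2(TPM + 1), and fold changes on this scale understate those of low genes. Tested on simulated data for DSE against BMI in testis, it recovered 83% of 200 genes changed by 2 log2, with 6 false calls, over 19909 genes. The changed genes had a mean log2(TPM + 1) above 1 in all 10 groups, which no member had. This recovery was thus not measured for genes like the members. Python 3.11.15 was used for the rest. RefSeq of the same build gave gene starts and sequence, and all annotated positions lay within its chromosome lengths. Protein sequences were not used here, and the promoter sequences of the other members are not reported here.

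Members and lists were chosen with earlier results of these data known. The rule for named genes was all members, the 3 largest and 3 smallest testis changes of the other pathway genes with all not called there, all called between breeds in testis, 4 relatives, and the 5 genes most like the members. Genes named otherwise (RNF17, TDRD6 and the genes named beside it, the neighbours of TDRD9, markers) were chosen after their values were seen. Alternatives were another pseudocount, filters, size factors, no trend, a replicate block, other ways of summing and leaving out libraries. Summing all members by RefSeq locus, and leaving out single testis libraries in comparisons other than that of the breeds in testis, were added after seeing the data. Depth is not kept in TPM. Replicate numbers were not taken to pair libraries, since deviations from group means correlated with a median of 0.015 for equal numbers. Mean small RNA read lengths were used by order alone.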

Additional observations from a re-analysis of the deposited data

Results flagged for a closer look

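TDRD9 stood out because its breed difference (DSE minus BMI) in testis was -3.29 on the log2 scale relative to the mean difference in the other glands, a difference tested within the model by limma (adjusted p = 3.5e-06). All 12 DSE libraries outside testis lay above the BMI libraries of their gland, and all 3 DSE testis libraries lay below the BMI ones. RNF17 stood out in the same contrast, at -1.62 (adjusted p = 0.0134 by limma). Groups of 3 libraries are too small for the test of single outlying libraries.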

How the results depend on the processing

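All 10 members were called higher in testis under every alternative except Ensembl transcripts alone, which tested 8 and called all 8. Counts of called members moved as follows. A pseudocount of 0.1 gave 1 between epididymis and accessory glands in place of 0, 0 between breeds in testis in place of 1, and 5 between breeds in the other glands, summed over the 4, in place of 3. Size factors gave 5 and Ensembl transcripts alone gave 1 in the other glands, and leaving out DSE testis replicate 2 gave 6. Between breeds in testis the count was 0 in the 6 testis libraries alone and 0 to 5 when libraries were left out. In the latter fits 1.22 to 6.89% of all genes were called lower in DSE. For the breed difference in testis against the other glands it was 1 to 4 when libraries were left out, with 3 without DSE testis replicate 1 and 4 without DSE testis replicate 3. Under these settings the share of all genes called was worked out only for testis against the other glands and for the breeds in testis. The remaining counts here cannot be set beside such a share. With Ensembl transcripts alone, 6 of 10 other pathway genes tested, in place of 13 of 16, were called higher in testis, where 26.7% of all genes were. Between breeds in testis, 2 of these 10 in place of 0 were called lower in DSE, where 1.83% of all genes were. The top isoform was the same by Iso-seq for 6 of the 9 members that could be compared. The causes were not tested. With a replicate block, 1 member was called between breeds in testis (MAEL, adjusted p = 0.035 by limma), as without it, and no other call changed; equal numbers gave correlations from -0.55 to 0.39 and do not pair the libraries. Size factors shifted the median of all genes from 0.31 to 0.13 in testis, from 0.41 to 0.03 in epididymis, from -0.27 to 0 for the breeds in vesicular gland and from 0.24 to 0 in prostate gland. TPM keeps no depth, so levels under 1 TPM outside testis have no counting error here. In the simulation limma recovered 83% of breed changes of 2 log2 in testis, so smaller ones can be missed. The changed genes there were above the low levels that members had outside testis, so recovery may differ for members.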
